A study of Homo sapiens with 12 samples.

Results

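The genes described here are 35 members of the ATF4 stress, serine and amino acid programme. They were taken by symbol from a list of known ATF4 targets, serine and one-carbon enzymes and amino acid transporters. The list was chosen with earlier results of these data known. Counts of members set beside the share of all genes are therefore a description, not an independent test. All 35 were found among the 23434 genes of one count table. The table held nascent transcripts of U2OS MycER cells, measured by EU-seq. In this assay cells are fed the uridine analogue 5-ethynyl uridine (EU), and only RNA made during the pulse is captured and sequenced, so a value reflects ongoing transcription more closely than the standing amount of mRNA. There were 12 libraries in 4 groups of 3: shNT (a non-targeting hairpin), shNT_OHT (the same hairpin with 300 nM 4-hydroxytamoxifen, OHT, for 40 h), shCDK12 (a hairpin against CDK12, the kinase that phosphorylates elongating RNA polymerase II) and shCDK12_OHT (that hairpin with OHT). All 4 groups were infected with hairpin virus, given 1 µg/mL doxycycline, held in mitosis with 100 ng/mL nocodazole for 8 h, released for 12 h and labelled with 0.5 mM EU for 2 h, so the shNT cells are not untreated cells. U2OS is an osteosarcoma line, and MycER is MYC joined to the hormone-binding part of the oestrogen receptor, which OHT switches on. How many CDK12 hairpins were used, what drives the MycER transgene and whether the replicates were separate cultures was not given in the sources used here, so the p-values measure only the spread between these libraries, which may be technical.

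CDK12 itself went against one label. Its level in CPM (the count relative to the library's total, scaled by TMM, which is the unit of all levels below) was 323, 288.9 and 300.2 in the shNT libraries and 293.4, 277 and 297.6 in the libraries labelled shCDK12, and the groups overlapped. The difference was -0.08 on the log2 scale (SE 0.08, edgeR quasi-likelihood adjusted p = 0.447, 95% interval -0.24 to 0.09). With OHT, CDK12 was at 433.6, 356.4 and 400.5 in shNT_OHT and at 215, 208.1 and 218 in shCDK12_OHT, a difference of -0.88 (SE 0.11, adjusted p = 0.00011). The labels were kept, and the groups are named below as the libraries labelled shCDK12 and shCDK12_OHT. Which of these 2 groups had OHT was taken from the labels alone. The OHT response in them, the interaction and the hairpin comparisons all rest on it, and whether the labels are right was not tested. CDK12 was also 0.38 higher in shNT_OHT than in shNT (SE 0.12, adjusted p = 0.0352), a call that was lost without any 1 of 4 libraries (adjusted p 0.0863 to 0.197). In the libraries labelled shCDK12 it fell by 0.44 upon OHT (SE 0.074, adjusted p = 9.55e-05).

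Depth differed between the groups. The median library held 4314380 counts in shNT, 3297982 in shNT_OHT, 5349901 in those labelled shCDK12 and 7173020 in those labelled shCDK12_OHT, and the extremes, 1251695 in shNT_OHT replicate 2 and 10447836 in a library labelled shCDK12_OHT, lay 8.35-fold apart. Labelled human RNA had been mixed with mouse RNA (40 and 10 µg) before capture, but mouse genes were not analysed here, so every level is relative to the human counts of its library, and whether total nascent RNA changed cannot be seen. In a bulk library, fewer cells making a transcript and less transcript per cell cannot be told apart.

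Of 8 mesenchymal markers, 7 were read in all 12 libraries, while COL1A2, a collagen chain, had at most 5 counts and was at 0 in 5. Of the epithelial markers, KRT19 had 0 counts in all 12 libraries, CDH1 was read at a low level in all 12 (3.99 to 12.2 CPM, at most 84 counts) and EPCAM reached 91 counts. EPCAM was at 0.82 ± 0.88 CPM in shNT, 1.58 ± 0.97 in shNT_OHT, 8.03 ± 1.45 in the libraries labelled shCDK12 and 2.64 ± 0.26 in those labelled shCDK12_OHT (SD, n = 3), and it was the 1 epithelial marker called in any comparison, lower upon OHT in the libraries labelled shCDK12, where it passed the filter on low counts through its higher group. Among the blood and endothelial markers analysed, PTPRC, PECAM1 and CDH5 reached at most 7, 8 and 9 counts, CD14 reached 25 and VWF 27. The mesenchymal markers moved with the groups: their summed level was 1904 ± 44.6 CPM in shNT, 1337 ± 60.3 in shNT_OHT, 555 ± 8.12 in the libraries labelled shCDK12 and 779.5 ± 7.38 in those labelled shCDK12_OHT (SD, n = 3). FN1 (fibronectin), which had the most counts of them in shNT, was 4.12 lower on the log2 scale in the libraries labelled shCDK12 than in shNT (SE 0.097, adjusted p = 9.79e-21). Without OHT all 7 markers that could be tested were called lower in the libraries labelled shCDK12, against 32.4% of all genes tested. With OHT 5 of 7 were, against 21.6%. Upon OHT 5 of 7 were lower in shNT, against 8.29% of all genes. In the libraries labelled shCDK12, 6 of 7 were higher upon OHT, against 27.5%. The interaction was called higher for 6 of 7, against 25.6%, which is opposite to the direction of most members. The part of these marker shifts in the results below was not tested.

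ATF4 is a transcription factor of the integrated stress response. When a stress kinase phosphorylates the initiation factor eIF2, overall translation falls while ATF4 mRNA is translated more, so ATF4 protein can rise without any change in ATF4 transcription. ATF4 pairs with C/EBP proteins and other partners on composite C/EBP-ATF elements and switches on genes that import amino acids, make serine, glycine, proline and asparagine, charge folate with one-carbon units and, in prolonged stress, favour cell death through DDIT3 (CHOP). MYC binds E-boxes at many of the same genes, among them those of serine synthesis and amino acid import. EU-seq reads the transcription of ATF4 and its targets, and does not read ATF4 protein or eIF2 phosphorylation.

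Promoter sequences are shown for the element through which ATF4 acts. The members were listed as known ATF4 targets among others, so the letters of that element in their promoters are not independent of the listing. RefSeq promoters (GRCh38.p14, 250 bases before to 50 after each start, 47 entries) were matched for 28 of the 35 genes, and GPT2, PSPH, SHMT2, SLC7A11, NUPR1, ALDH1L2 and PYCR1 were not matched. The letters TGATGNAA, the core of the C/EBP-ATF element, were found on either strand in 10 of the 47 entries (21.3%), against 3.62% of all 35116 entries and 2.01% of the entries of the genes tested. The genes were ASNS, CEBPG, CHAC1, MTHFD1L, SLC1A4, SLC1A5, SLC3A2 and SLC7A1. The E-box CACGTG, which reads the same on both strands, was in 9 of the 47 entries (19.1%), of ALDH18A1, ATF4, MTHFD1, MTHFD1L, SLC1A5 and SLC7A5, against 7.26% of all entries and 9.39% of those of the genes tested. MTHFD1L and SLC1A5 held both motifs, at positions that did not overlap. A match describes the letters only and is not evidence of binding. For the 5 genes with a C/EBP-ATF match before one of their starts, the sequence is shown on the strand of the gene, with the match in capitals. The stretches of CHAC1 (chr15:40953221-40953315, plus strand) and ASNS (chr7:97872423-97872522, minus strand) are longer because these 2 genes had some of the largest differences below, and the CHAC1 match lies on the opposite strand. CEBPG (chr19:33374060-33374089, plus strand), MTHFD1L (chr6:150866346-150866375, plus strand) and SLC1A5 (chr19:46784893-46784922, minus strand) are shown around the match alone, and the MTHFD1L match, which precedes 2 of its starts, lies after the most upstream one.
CHAC1: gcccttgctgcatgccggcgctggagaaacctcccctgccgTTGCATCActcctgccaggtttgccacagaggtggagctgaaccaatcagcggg
ASNS: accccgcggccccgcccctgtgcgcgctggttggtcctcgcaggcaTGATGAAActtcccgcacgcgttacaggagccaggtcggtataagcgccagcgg
CEBPG: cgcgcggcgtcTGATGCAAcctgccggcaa
MTHFD1L: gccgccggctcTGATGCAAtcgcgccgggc
SLC1A5: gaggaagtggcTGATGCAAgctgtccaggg

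The first comparison asked how MycER activation changed the programme in cells with the non-targeting hairpin. Upon OHT, 16 of the 34 members that could be tested rose and no member was called lower, although DESeq2 called 17 higher and, at an unadjusted p under 0.05, edgeR had 21 higher and 1 lower. Of all 10272 genes tested, 17.3% were called, 9.05% higher and 8.29% lower. That background depended on the libraries: the 1782 calls became 751, 670 and 818 without shNT replicate 1, 2 or 3, 1101 without shNT_OHT replicate 3, and 3256 in 1 fit of all 12 libraries. The median member was 0.48 higher on the log2 scale, while the median of all genes tested was -0.03. The rises were led by DDIT4 (REDD1, an inhibitor of mTORC1), CHAC1 (an enzyme that degrades glutathione), TRIB3 (a pseudokinase that binds ATF4), DDIT3 and CTH (cystathionine gamma-lyase, which makes cysteine). The libraries of the 2 groups did not overlap for 21 of the 34 members, against 35.9% of all genes. STC2, a secreted glycoprotein, had 2 to 60 counts per library and was left out of this comparison. Leaving out 1 library cost the calls of CTH, GPT2, PHGDH, PYCR1 and SLC7A1 (adjusted p between 0.0537 and 0.146), and 11 of the 16 calls were kept whichever library was left out.

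The same question in the libraries labelled shCDK12 gave mostly falls, taking the OHT labels as given. Upon OHT, 19 of the 35 members fell and 2 rose, against 21.5% and 27.5% of all 12519 genes tested (48.9% called in all). The median member was 0.32 lower, and the median of all genes was 0.05 higher. With upper-quartile scaling the median of all genes was -0.014, and 47.9% of the calls were higher, against 56.2% in the main fit. The falls were led by CTH, SLC7A11 (the cystine importer), CHAC1, PSAT1 and ASNS. The 2 members that rose were NUPR1, a small stress-induced chromatin protein, and SLC38A2, a glutamine and alanine carrier. Groups did not overlap for 24 of 35 members, against 56.3% of all genes. The calls of NUPR1, PHGDH, SHMT2 and TRIB3 were lost without 1 library (adjusted p 0.0546 to 0.151), and 17 of the 21 calls were kept.

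These 2 OHT comparisons share no library. The sign of the response was opposite for 28 of the 34 members tested in both (82.4%), against 71.1% of the 10233 genes tested in both. Of the members, 27 were higher with OHT in shNT and lower in the libraries labelled shCDK12, SLC38A2 was the other way round, 4 were higher in both and 2 lower in both. Of all 10233 genes, 3274 were higher in shNT and lower in the libraries labelled shCDK12, and 4003 were the other way round. All 12 members called in both comparisons had opposite signs, as had 1363 of the 1394 genes called in both. The sign in the libraries labelled shCDK12 rests on which of them had OHT by label, and whether those labels are right was not tested. For 3 of the 12, DDIT3, SHMT2 and TRIB3, the call in the libraries labelled shCDK12 was lost in 1 fit of all 12 libraries (adjusted p = 0.0793, 0.0661 and 0.0771). The interaction, which tests the difference between the 2 OHT responses in 1 fit of all 12 libraries, was called for 25 of 34 members, with 24 differences below 0 (labelled shCDK12 minus shNT) and 1, that of SLC38A2, above 0. Among all 11699 genes 45.2% were called, 19.6% lower and 25.6% higher. The median member difference was -0.88, against 0.10 for all genes. Upper-quartile scaling moved that median of all genes to -0.016 and that of the members to -1.0. The calls of PSAT1, SLC7A1 and VLDLR were lost without 1 library (adjusted p 0.053 to 0.25).

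**Figure D1:**
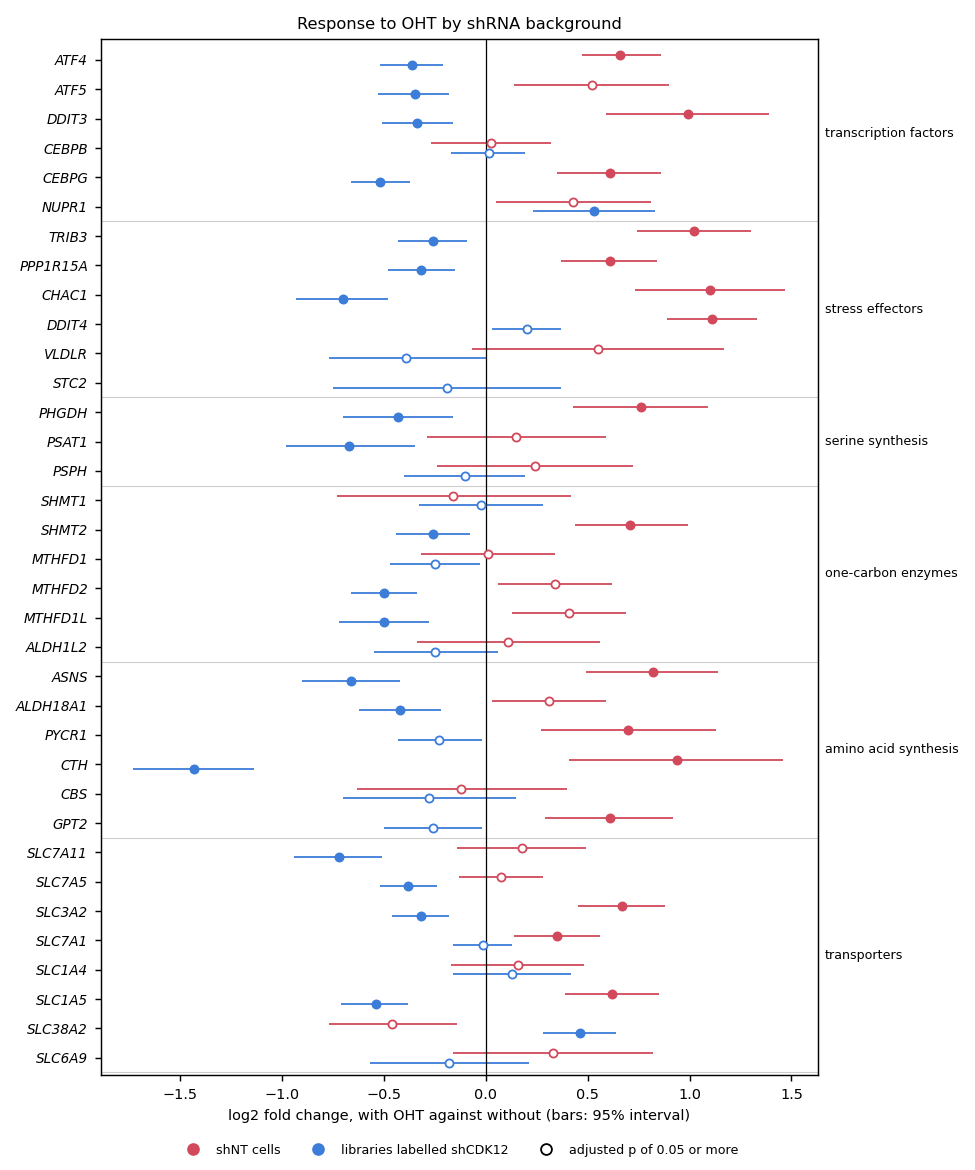
Response to OHT of each member (log2 fold change, with OHT against without, horizontal axis) in shNT cells (red) and in the libraries labelled shCDK12 (blue), grouped by role. Bars are 95% intervals, filled points passed an adjusted p of 0.05, and STC2 has no value in shNT. For 27 members the red point lies right of 0 and the blue point left of it.

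The hairpins were then compared at the same OHT state. Without OHT members moved in both directions in the libraries labelled shCDK12. Of 34 tested, 8 were higher than in shNT and 18 lower, against 29.6% and 32.4% of 11718 genes (62.0% called in all). The 8 were ATF4, ATF5, DDIT3, CEBPG, TRIB3, PPP1R15A, SHMT2 and CTH, while all 8 transporters were among the 18. The transcription factors gave 4 higher and 2 lower, the stress effectors 2 and 2, the one-carbon enzymes 1 and 2 and the amino acid synthesis genes 1 and 3. The median member was -0.33, against -0.03 for all genes. Groups did not overlap for 26 members, against 64.5% of all genes. GPT2, MTHFD1L and SLC3A2 lost their call without 1 library (adjusted p 0.0536 to 0.15), and under another setting CEBPB did (thinned to equal depth, adjusted p = 0.126), as did PYCR1 (1 fit of all libraries, adjusted p = 0.0585).

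With OHT the difference was nearly all in 1 direction. In the libraries labelled shCDK12_OHT, 27 of 34 members were lower than in shNT_OHT and 1, ATF5, was higher, against 21.6% and 23.8% of 11668 genes (45.4% called in all). The median member was -1.03, against 0.05 for all genes, and groups did not overlap for 28 members, against 55.2% of all genes. CHAC1, CBS, ASNS, PSAT1 and SLC1A5 differed most. ALDH1L2 and CEBPG lost their call without 1 library (adjusted p 0.0582 to 0.135). Of the 22 members called in both hairpin comparisons, which share no library, 16 were lower in both and ATF5 was higher in both. The other 5, ATF4, CEBPG, TRIB3, SHMT2 and CTH, were higher in the libraries labelled shCDK12 without OHT and lower with it. Of the 3496 genes called in both, 1255 were lower in both, 1227 higher in both and 1014 of opposite sign, so the share of members with opposite signs was near that of all genes. The count of all genes called in this comparison, 5298, was 3527 without shCDK12_OHT replicate 1 and 3520 without replicate 2.

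**Figure D2:**
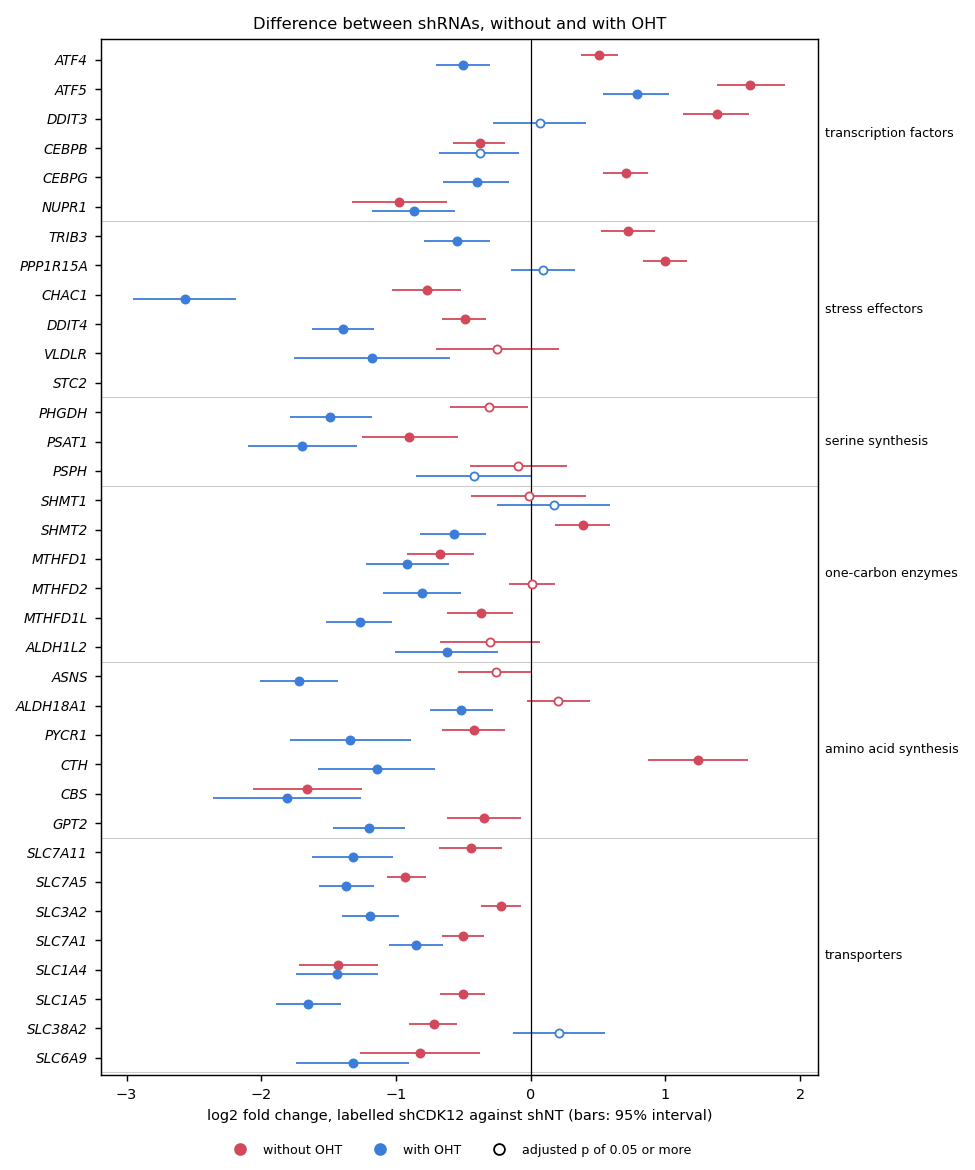
Difference between the libraries labelled shCDK12 and the shNT libraries for each member (log2 fold change, horizontal axis) without OHT (red) and with OHT (blue), grouped by role. Bars are 95% intervals, filled points passed an adjusted p of 0.05, and STC2 was not tested. The blue points lie left of the red ones for most members, and the filled red points right of 0 are ATF4, ATF5, DDIT3, CEBPG, TRIB3, PPP1R15A, SHMT2 and CTH.

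Ordered by group mean, 26 of the 35 members were highest in shNT_OHT, 6 in the libraries labelled shCDK12, 3 in shNT and none in those labelled shCDK12_OHT. The lowest mean was in shCDK12_OHT for 21 members, in shNT for 8, in shCDK12 for 5 and in shNT_OHT for 1. The same order was not counted over all genes, so these counts are a description only. They include PSPH and SHMT1, which were called in no comparison, and STC2, which had 2 to 60 counts per library. The ratio of the highest to the lowest group mean ran from 1.09 for SHMT1, the cytosolic serine hydroxymethyltransferase, to 5.98 for CHAC1.

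**Figure D3:**
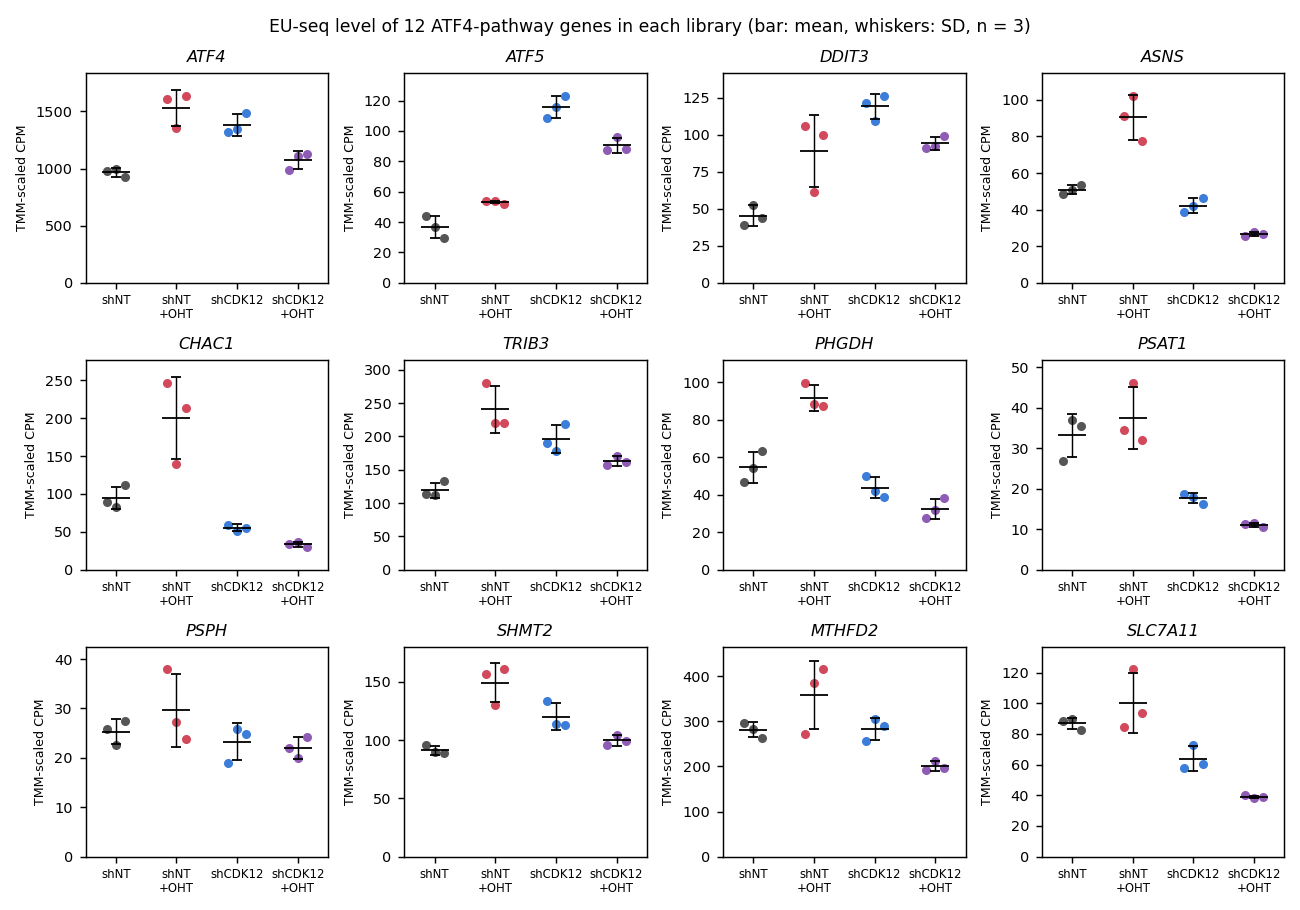
Level of 12 genes of the programme in each of the 12 libraries (vertical axis, TMM-scaled CPM from 0, a separate scale for each gene) in the 4 groups. Points are libraries, the bar is the mean and the whiskers are 1 SD (n = 3). ASNS, CHAC1, PHGDH and SLC7A11 are lowest in the libraries labelled shCDK12_OHT, whereas ATF5 is lowest in shNT.

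Among the transcription factors, ATF4, ATF5, DDIT3 and CEBPG, a partner of ATF4, were transcribed at their lowest level in shNT. ATF4 was at 979.3, 1000 and 921.7 CPM in shNT, 1610, 1351 and 1637 in shNT_OHT, 1315, 1342 and 1489 in the libraries labelled shCDK12 and 986.6, 1110 and 1125 in those labelled shCDK12_OHT. Both middle groups lay above all shNT libraries, while one shCDK12_OHT library lay within the shNT range. The OHT response was 0.66 in shNT (SE 0.10, adjusted p = 0.000631) and -0.36 in the libraries labelled shCDK12 (SE 0.077, adjusted p = 0.000765), with a difference of -1.03 (SE 0.13, adjusted p = 3.13e-06). ATF4 has 4 processed copies in RefSeq, and reads shared with them could be split, so its level is uncertain to that extent.

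ATF5, a related factor that is itself a target of the stress response, was higher in both groups labelled shCDK12. Its OHT responses had the signs of those of ATF4: 0.52 in shNT (SE 0.19, adjusted p = 0.0747) and -0.35 in the libraries labelled shCDK12 (SE 0.089, adjusted p = 0.00305). It was at 43.8, 36.5 and 29.57 CPM in shNT, 53.89, 53.62 and 52.2 in shNT_OHT, 108.4, 115.6 and 123.2 in the libraries labelled shCDK12 and 87.62, 96.22 and 87.98 in those labelled shCDK12_OHT. Every library labelled shCDK12, with or without OHT, lay above every shNT library, and the differences were 1.63 without OHT (SE 0.13, adjusted p = 7.72e-11) and 0.79 with it (SE 0.13, adjusted p = 0.000561). ATF5 overlaps other genes in RefSeq, and whether strand was used in counting was not given in the sources used here.

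DDIT3, the pro-death factor CHOP, was at 39.35, 52.89 and 44.1 CPM in shNT, 105.6, 61.05 and 100 in shNT_OHT, 121.4, 109.6 and 126.4 in the libraries labelled shCDK12 and 91.01, 92.32 and 99.4 in those labelled shCDK12_OHT. The shallowest library, shNT_OHT replicate 2, was the low one of its group. Without OHT the libraries labelled shCDK12 were 1.38 higher (SE 0.12, adjusted p = 7.43e-10), whereas with OHT the difference was 0.07 (95% interval -0.28 to 0.41, adjusted p = 0.773). DDIT3 overlaps MARS1, which limits how firmly its level can be read. CEBPG rose by 0.61 upon OHT in shNT and fell by 0.52 in the libraries labelled shCDK12 (adjusted p = 0.00615 and 1.6e-05), with a difference of -1.13. CEBPB, another C/EBP factor, had OHT responses of 0.03 and 0.01, neither called.

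Of the stress effectors, CHAC1 showed the widest range. It was at 89.71, 83.34 and 111.8 CPM in shNT, 247.2, 140.2 and 213.4 in shNT_OHT, 59.52, 50.58 and 55.52 in the libraries labelled shCDK12 and 34.1, 36.32 and 30.11 in those labelled shCDK12_OHT. The 4 groups did not overlap. CHAC1 rose by 1.10 upon OHT in shNT (SE 0.19, adjusted p = 0.00164) and fell by 0.70 in the libraries labelled shCDK12 (SE 0.12, adjusted p = 7.14e-05), and with OHT the 2 hairpins differed by -2.57 (SE 0.19, adjusted p = 6.84e-06).

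TRIB3 and PPP1R15A (GADD34, which brings the phosphatase to eIF2 and ends the response) were, like DDIT3, called higher in the libraries labelled shCDK12 than in shNT without OHT. TRIB3 was at 113.1, 112.6 and 132.3 CPM in shNT, 280.7, 220.3 and 220.7 in shNT_OHT, 189.9, 177.8 and 218.5 in the libraries labelled shCDK12 and 156.6, 170.8 and 161.3 in those labelled shCDK12_OHT. Its response was 1.02 in shNT (SE 0.14, adjusted p = 0.00038) and -0.26 in the libraries labelled shCDK12 (SE 0.087, adjusted p = 0.0197), the latter not called without any 1 of 3 libraries (adjusted p 0.0654 to 0.151). PPP1R15A was 1.0 higher in the libraries labelled shCDK12 than in shNT (SE 0.083, adjusted p = 1.88e-10), and with OHT the difference was 0.09 (95% interval -0.15 to 0.33).

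DDIT4 rose with OHT in shNT and was not called in the libraries labelled shCDK12. It was at 299.4, 334.9 and 284.2 CPM in shNT, 722.2, 603.9 and 664.9 in shNT_OHT, 206.4, 220.9 and 227.4 in the libraries labelled shCDK12 and 223.3, 282.9 and 245.1 in those labelled shCDK12_OHT. The shNT_OHT libraries stood far above the other 9, with a response of 1.11 (SE 0.11, adjusted p = 2.03e-05), against 0.20 (SE 0.088, adjusted p = 0.0697). The difference between these responses was -0.92 (SE 0.15, adjusted p = 4.99e-05). VLDLR, a lipoprotein receptor, was called in the difference with OHT (-1.18) and in the interaction (-0.96), and the latter call was lost without any 1 of 7 libraries (adjusted p 0.0743 to 0.25, log2 differences of -0.96 to -0.51) and with the replicate block (0.066).

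Calls differed between the 3 enzymes of serine synthesis, but the genes were not tested against each other. PHGDH, which draws 3-phosphoglycerate from glycolysis in the committing step, was at 46.61, 54.26 and 63.15 CPM in shNT, 99.94, 88.27 and 87.28 in shNT_OHT, 50.26, 42.18 and 39.05 in the libraries labelled shCDK12 and 27.85, 31.66 and 38.27 in those labelled shCDK12_OHT. Every shNT_OHT library lay above the other 9. The hairpins differed by -1.49 with OHT (SE 0.15, adjusted p = 4.35e-05) and by -0.31 without it (adjusted p = 0.0747), and the difference between the OHT responses was -1.20 (SE 0.22, adjusted p = 0.00015).

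PSAT1, the aminotransferase of the next step, was at 26.94, 36.89 and 35.58 CPM in shNT, 34.46, 46.2 and 31.9 in shNT_OHT, 18.76, 18.05 and 16.28 in the libraries labelled shCDK12 and 11.27, 11.5 and 10.52 in those labelled shCDK12_OHT. The first 2 groups overlapped and the last 2 lay below both. Its response to OHT was 0.15 in shNT (adjusted p = 0.691) and -0.67 in the libraries labelled shCDK12 (SE 0.16, adjusted p = 0.00217). PSPH, the phosphatase of the last step, was at 25.77, 22.64 and 27.56 CPM in shNT, 37.91, 27.22 and 23.78 in shNT_OHT, 18.99, 25.92 and 24.8 in the libraries labelled shCDK12 and 22.01, 19.87 and 24.31 in those labelled shCDK12_OHT. All 4 groups overlapped and PSPH was called in no comparison. RefSeq lists 4 pseudogenes of PSAT1 and 1 of PSPH.

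One-carbon metabolism carries the carbon that serine gives up into purines and thymidylate, in a mitochondrial and a cytosolic arm. SHMT2, which splits serine in mitochondria, was at 95.8, 89.58 and 88.71 CPM in shNT, 157, 130.3 and 160.6 in shNT_OHT, 133.4, 114.1 and 112.7 in the libraries labelled shCDK12 and 95.77, 104.6 and 98.86 in those labelled shCDK12_OHT. Its responses to OHT were 0.71 (SE 0.14, adjusted p = 0.00357) and -0.26 (SE 0.091, adjusted p = 0.0237), the second not called without any 1 of 3 libraries (adjusted p 0.0705 to 0.0977). The cytosolic SHMT1 was called in none of the 5 tests, with OHT responses of -0.16 (95% interval -0.73 to 0.42) and -0.03 (95% interval -0.33 to 0.28).

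MTHFD2, the mitochondrial dehydrogenase that follows, was at 296.8, 283.6 and 264.1 CPM in shNT, 272.3, 386.1 and 415.5 in shNT_OHT, 256.4, 305.6 and 288.9 in the libraries labelled shCDK12 and 192.6, 212.8 and 197.2 in those labelled shCDK12_OHT. One shNT_OHT library stayed within the shNT range, and the response of 0.34 was not called (adjusted p = 0.117), although without that library, replicate 1, it was. The libraries labelled shCDK12_OHT lay below all others, and the fall of 0.50 was called (SE 0.082, adjusted p = 7.68e-05). MTHFD2 has 7 pseudogenes in RefSeq, so its level is uncertain. MTHFD1L, the mitochondrial formate producer, fell by 0.50 upon OHT in the libraries labelled shCDK12 (adjusted p = 0.00114, but a fall of 0.24 with adjusted p = 0.238 after thinning to equal depth), and MTHFD1 and ALDH1L2 were called in neither OHT comparison.

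Among the members, the largest difference between the OHT responses was that of an amino acid synthesis gene, CTH. CTH was at 13.59, 13.27 and 16.04 CPM in shNT, 31.96, 19.8 and 27.84 in shNT_OHT, 37.75, 31.59 and 30.72 in the libraries labelled shCDK12 and 12.23, 13.6 and 10.52 in those labelled shCDK12_OHT. The first and last groups lay together at the bottom and the 2 middle groups above them. Its response was 0.94 in shNT (SE 0.27, adjusted p = 0.0275, lost without any 1 of 4 libraries with adjusted p 0.0613 to 0.141) and -1.43 in the libraries labelled shCDK12 (SE 0.15, adjusted p = 6.11e-07), and the difference was -2.40 (SE 0.29, adjusted p = 1.38e-06).

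CBS, the enzyme before CTH in the same pathway, followed the hairpin label instead. It was at 32.09, 31.62 and 38.59 CPM in shNT, 41.36, 17.32 and 31.32 in shNT_OHT, 13.2, 8.29 and 11.47 in the libraries labelled shCDK12 and 7.61, 8.75 and 10.34 in those labelled shCDK12_OHT. All 6 libraries labelled shCDK12 or shCDK12_OHT lay below all 6 labelled shNT or shNT_OHT. The differences were -1.66 without OHT (SE 0.21, adjusted p = 2.18e-07) and -1.81 with it (SE 0.28, adjusted p = 0.000492), and OHT responses were called in neither background.

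ASNS, which makes asparagine and is a standard readout of ATF4, was at 48.72, 50.55 and 53.63 CPM in shNT, 91.17, 102.3 and 77.71 in shNT_OHT, 38.45, 41.87 and 46.26 in the libraries labelled shCDK12 and 25.81, 27.86 and 26.48 in those labelled shCDK12_OHT. No group overlapped another. It rose by 0.82 upon OHT in shNT (SE 0.17, adjusted p = 0.00473) and fell by 0.66 in the libraries labelled shCDK12 (SE 0.12, adjusted p = 0.000246), and with OHT the hairpins differed by -1.72 (SE 0.15, adjusted p = 1.53e-05). ASNS has 5 pseudogenes in RefSeq and overlaps other genes there, among them CZ1P-ASNS, so its level is uncertain to that extent. ALDH18A1, PYCR1 and GPT2, which serve proline and alanine synthesis, were all lower in the libraries labelled shCDK12_OHT than in shNT_OHT, by -0.52, -1.34 and -1.20.

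The transporters differed between the hairpins at both OHT states. Without OHT 8 of 8 were lower in the libraries labelled shCDK12, against 32.4% of all genes, and with OHT 7 of 8, against 21.6%, the exception being SLC38A2. The call of SLC3A2 without OHT was lost with upper-quartile scaling (adjusted p = 0.165) and without shNT replicate 2 (0.0595). SLC7A11 was at 88.54, 89.58 and 82.69 CPM in shNT, 84.59, 122.1 and 93.37 in shNT_OHT, 57.9, 73.04 and 60.33 in the libraries labelled shCDK12 and 39.94, 38.22 and 38.64 in those labelled shCDK12_OHT. The 2 shNT groups overlapped, whereas the libraries labelled shCDK12_OHT were 0.72 below those labelled shCDK12 on the log2 scale (SE 0.11, adjusted p = 3.66e-05). SLC7A11 overlaps SLC7A11-AS1 in RefSeq.

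SLC1A5, the ASCT2 glutamine importer, was at 370.1, 390 and 370.4 CPM in shNT, 669.2, 505.7 and 562.6 in shNT_OHT, 288.1, 245 and 268.9 in the libraries labelled shCDK12 and 178.1, 197.5 and 172.1 in those labelled shCDK12_OHT. Its groups did not overlap, and the OHT responses were 0.62 (SE 0.12, adjusted p = 0.003) and -0.54 (SE 0.084, adjusted p = 3.93e-05). Its relative SLC1A4, a carrier of serine and alanine, was at 76.83, 67.92 and 65.65 CPM in shNT, 91.8, 73.42 and 69.59 in shNT_OHT, 32.19, 22.67 and 24.98 in the libraries labelled shCDK12 and 27.3, 30.99 and 27.39 in those labelled shCDK12_OHT. OHT made no called difference to SLC1A4, and the hairpins differed by -1.43 without OHT and -1.44 with it (SE 0.15 and 0.16, adjusted p = 1.19e-08 and 5.58e-05).

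SLC7A5 and SLC3A2 encode the 2 chains of the large neutral amino acid importer LAT1. Both fell upon OHT in the libraries labelled shCDK12, and in shNT only SLC3A2 was called. The genes were not tested against each other. SLC7A5 had responses of 0.08 in shNT (adjusted p = 0.654) and -0.38 in the libraries labelled shCDK12 (SE 0.072, adjusted p = 0.000291). RefSeq lists 2 pseudogenes of SLC7A5, and the gene overlaps SLC7A5-AS1. SLC3A2 had responses of 0.67 (SE 0.11, adjusted p = 0.0013) and -0.32 (SE 0.071, adjusted p = 0.00119). SLC38A2, whose mRNA is known to answer to amino acid shortage, was the 1 transporter with the opposite pattern, at 1858, 2115 and 1857 CPM in shNT, 980, 1818 and 1473 in shNT_OHT, 1059, 1404 and 1078 in the libraries labelled shCDK12 and 1601, 1637 and 1624 in those labelled shCDK12_OHT. Its difference between the OHT responses was 0.91 (SE 0.21, adjusted p = 0.00168), and the shNT_OHT libraries were widely spread. SLC7A1, the arginine and lysine importer, and SLC6A9, a glycine carrier, were lower in the libraries labelled shCDK12_OHT than in shNT_OHT by -0.85 and -1.32.

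**Figure D4:**
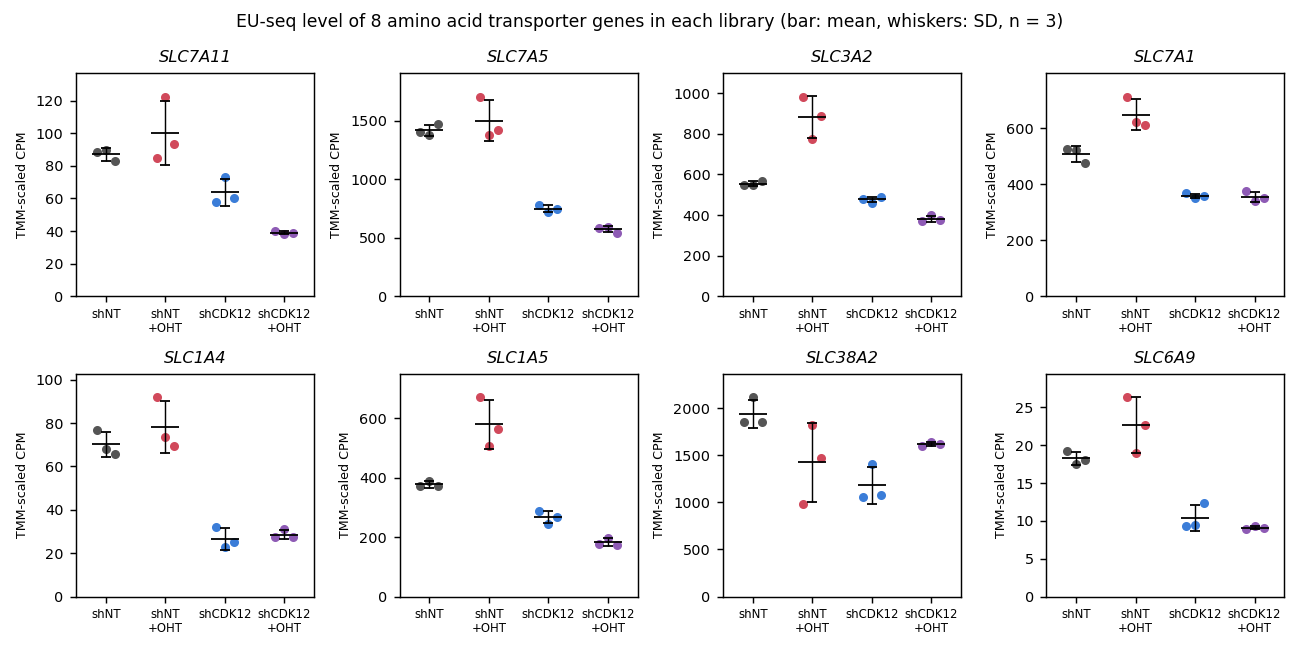
Level of the 8 amino acid transporter genes in each of the 12 libraries (vertical axis, TMM-scaled CPM from 0, a separate scale for each gene) in the 4 groups. Points are libraries, the bar is the mean and the whiskers are 1 SD (n = 3). All but SLC38A2 are lower in both groups labelled shCDK12 than in shNT_OHT.

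MYC, whose fusion MycER is the protein that OHT activates, was at 2221, 2044 and 2013 CPM in shNT, 2199, 1706 and 1997 in shNT_OHT, 1214, 1035 and 1122 in the libraries labelled shCDK12 and 2091, 2095 and 2000 in those labelled shCDK12_OHT. Only the libraries labelled shCDK12 stood apart, 0.90 below shNT on the log2 scale. Reads of the MycER transgene and of the cells' own MYC gene cannot be told apart in these counts.

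Other genes around the programme were read from 5 further lists. The shares of all genes called, given above, were 17.3% and 48.9% for OHT in shNT and in the libraries labelled shCDK12, 62.0% and 45.4% between hairpins without and with OHT, and 45.2% for the interaction, and the counts below are a description beside them. Of 16 other listed ATF4 targets, 14 were tested upon OHT in shNT, where 4 rose and 1 fell. ATF3, a factor that ATF4 switches on, was at 254.3 ± 21.6 CPM in shNT, 720.7 ± 109 in shNT_OHT, 1228 ± 152 in the libraries labelled shCDK12 and 794.7 ± 53.0 in those labelled shCDK12_OHT (SD, n = 3), and its OHT responses were 1.5 and -0.63 (SE 0.12 and 0.086, adjusted p = 5.19e-06 and 1.18e-05). The secreted factors INHBE and FGF21 were among the 4, but with 4 to 34 and 6 to 31 counts in shNT against 22 to 87 and 21 to 94 in shNT_OHT they passed the filter on low counts through the group in which they were high, so their calls are not support for a rise of the list. KLHL24 fell by 1.29 in shNT and rose by 1.03 in the libraries labelled shCDK12, against the direction of most members. In the libraries labelled shCDK12, 5 of 13 other targets rose upon OHT and 5 fell. INHBE, among those that fell, had 30 to 59 counts there without OHT and 17 to 38 with it. It thus passed the filter through its higher group, and its call is not support for a fall of the list. Without OHT the hairpin comparison gave 5 higher and 6 lower of 12, with OHT 3 higher and 8 lower of 14. The interaction was called for 2 higher and 6 lower of 14. INHBE and FGF21 were among the lower calls with OHT and in the interaction, and again passed the filter through shNT_OHT. These calls are therefore not support for a lower level of the list.

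Upstream of ATF4, the kinases, subunits and exchange factor of eIF2 gave few calls upon OHT. In shNT 1 of 12 was called, EIF2B4, a subunit of the exchange factor (0.57, adjusted p = 0.028, lost without any 1 of 3 libraries with adjusted p 0.0734 to 0.133), and in the libraries labelled shCDK12 1 of 13 was higher and 2 were lower. The interaction was called for 1 higher and 3 lower of 13. The hairpin comparison gave 1 higher and 6 lower of 13 without OHT (53.9% called, below the 62.0% of all genes) and 7 lower of 13 with it.

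The other branches of the unfolded protein response, run by ATF6 and XBP1, were read as chaperones and folding factors of the endoplasmic reticulum and their regulators. Of 17 genes, 5 rose and 1 fell upon OHT in shNT, and 1 rose and 9 fell in the libraries labelled shCDK12. Of the 6 calls in shNT, that of EDEM1, the fall, was lost without any 1 of 4 libraries (adjusted p 0.0533 to 0.127), that of HSP90B1 without 1 of 2 (0.0527 and 0.0752) and that of HYOU1 without shNT replicate 3 (0.0655), and those of CALR and HSPA5 were not examined in this way. HSPA5 (BiP, the main chaperone of the endoplasmic reticulum) was at 239.9 ± 8.11 CPM in shNT, 355.5 ± 25.0 in shNT_OHT, 411.4 ± 18.7 in the libraries labelled shCDK12 and 247.5 ± 4.82 in those labelled shCDK12_OHT (SD, n = 3), and the difference between its OHT responses was -1.30 (SE 0.13, adjusted p = 1.12e-07). XBP1 was 1.5 lower in the libraries labelled shCDK12_OHT than in shNT_OHT on the log2 scale (SE 0.10, adjusted p = 4.19e-06). The hairpin comparison gave 8 higher and 4 lower of 17 without OHT and 3 higher and 8 lower with it, and the interaction 2 higher and 8 lower.

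Of the folate, methionine and glutathione genes, 3 of 12 rose upon OHT in shNT, 2 of 13 rose and 4 fell in the libraries labelled shCDK12, and the interaction was called for 2 higher and 4 lower of 13. The last 2 counts were 46.2% of the genes tested, near the 48.9% and 45.2% of all genes. Of the 3 calls in shNT, that of GCLC was lost without any 1 of 4 libraries (adjusted p 0.113 to 0.176) and that of MAT2A without any 1 of the shNT libraries (0.0528 to 0.0669). MAT2A, which makes S-adenosylmethionine, was 1.01 higher without OHT in the libraries labelled shCDK12 (SE 0.077, adjusted p = 3.64e-11) and fell by 0.89 upon OHT there (SE 0.073, adjusted p = 3.18e-08). The hairpin comparison gave 4 higher and 2 lower of 13 without OHT and 2 higher and 3 lower with it.

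Of the glutamine, proline and other amino acid genes, 1 of 14 rose and 1 fell upon OHT in shNT, and 3 rose and 5 fell in the libraries labelled shCDK12. The 2 calls in shNT were those of GOT1, lost without any 1 of 4 libraries (adjusted p 0.097 to 0.203) and when thinned (0.348), and of SLC36A1, lost without any 1 of 5 libraries (0.0723 to 0.193). GLUL (glutamine synthetase) fell by 0.82 upon OHT in the libraries labelled shCDK12 (SE 0.14, adjusted p = 7.55e-05). OAT, which makes a precursor of proline, was higher in the libraries labelled shCDK12 without OHT by 0.90 and with OHT by 1.18 (adjusted p = 2.52e-07 and 0.00253). The hairpin comparison gave 1 higher and 8 lower of 14 without OHT and 1 higher and 7 lower with it, and the interaction 1 higher and 3 lower.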

How the data were processed

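The deposited file held whole-number counts of reads per gene, made by the authors, with gene IDs and 12 columns of libraries. Per the labels' processing notes, STAR 2.7.5c, featureCounts 1.4.5-p1 and hg19 were named, and strand use was not given in the sources used here. Symbols were taken by gene ID from RefSeq (GRCh38.p14) for 23284 of 23434 genes. The 35 members and the 5 pathway lists were chosen with earlier results of these data known. Counts were scaled by TMM over all genes, genes with a mean normalized count of 32 or less over the libraries of a fit were left out, and edgeR 4.0.16 in R 4.3.3 fitted the quasi-likelihood test with Benjamini-Hochberg adjustment over all genes tested, called under 0.05. Each pair of groups was fitted on its 6 libraries and the interaction on all 12. Genes named with all values were 12 core genes and the 5 members with the largest called change in each comparison. From the other lists, up to 3 called genes in each direction could be named, CDK12 and MYC were given in every library, and FN1, EPCAM and the levels of SLC38A2 were singled out after their values were seen. Fold changes are on the log2 scale with the standard error, and 95% intervals are normal approximations from it. Alternatives were DESeq2 1.42.0, upper-quartile scaling, no filter, a filter at 100, a replicate block, 1 fit of all libraries, thinning to 1251695 counts and leaving out each library.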

Additional observations from a re-analysis of the deposited data

Results flagged for a closer look

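By the labels, the OHT response differed between the 2 hairpin backgrounds for 25 members of 34 tested by the interaction test (edgeR, adjusted p under 0.05). That test called 45.2% of all 11699 genes, 19.6% lower and 25.6% higher. Without OHT, CDK12 was not called lower in the libraries labelled shCDK12, and whether the labels are right was not tested. The difference between the log2 responses, labelled shCDK12 minus shNT, was among transcription factors -1.03 for ATF4, -0.86 for ATF5, -1.34 for DDIT3 and -1.13 for CEBPG. Among stress effectors it was -1.29 for TRIB3, -0.93 for PPP1R15A, -1.82 for CHAC1, -0.92 for DDIT4 and -0.96 for VLDLR, the last not called without any 1 of 7 libraries (-0.51 at the smallest). In serine and one-carbon metabolism it was -1.20 for PHGDH, -0.81 for PSAT1, -0.98 for SHMT2, -0.84 for MTHFD2 and -0.92 for MTHFD1L. For amino acid synthesis it was -1.47 for ASNS, -0.74 for ALDH18A1, -0.94 for PYCR1, -2.40 for CTH and -0.87 for GPT2. For transporters it was -0.89 for SLC7A11, -0.46 for SLC7A5, -0.99 for SLC3A2, -0.37 for SLC7A1 and -1.17 for SLC1A5, and SLC38A2 alone was positive at 0.91.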

How the results depend on the processing

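Members called ranged over the 7 planned settings (6 for the interaction) from 14 to 19 upon OHT in shNT, 16 to 24 in the libraries labelled shCDK12, 22 to 27 between hairpins without OHT, 23 to 29 with OHT and 22 to 26 for the interaction. No called member changed sign under any of these settings or without any 1 library. Calls lost under another setting and not named in the results included, among members, those of GPT2 and PYCR1 upon OHT in shNT when thinned (adjusted p = 0.11 and 0.0624), of TRIB3 upon OHT in the libraries labelled shCDK12 when thinned (0.0785), of GPT2 between hairpins without OHT (0.085 with DESeq2, 0.123 with upper-quartile scaling), and of ALDH1L2 with OHT under the replicate block (0.0655). Among other genes named for OHT in shNT, EIF2B4 lost its call when thinned (0.0904), GCLC and GOT1 with the replicate block (0.0542 and 0.0658) and SLC36A1 with upper-quartile scaling and when thinned (0.0543 to 0.1). Leaving out 1 library gave 11 to 18, 19 to 23, 24 to 27, 26 to 29 and 23 to 25 in the same order. The count over all genes moved more: upon OHT in shNT it was 1782, was 3256 in 1 fit of all 12 libraries and ran from 670 (without shNT replicate 2) to 2523 with 1 library left out, and in shCDK12_OHT against shNT_OHT it was 5298 and ran from 3520 to 6238. Thinning to equal depth gave 4528 (of 7265) between hairpins without OHT, 3251 (of 6128) upon OHT in the libraries labelled shCDK12, 3178 between hairpins with OHT and 3231 (of 5289) for the interaction. The member median between hairpins without OHT was -0.236 with upper-quartile scaling, -0.389 when thinned and -0.39 to -0.302 with 1 library left out, and upon OHT in the libraries labelled shCDK12 it was -0.384 with upper-quartile scaling and -0.378 to -0.258 with 1 library left out. The median of all genes changed sign with upper-quartile scaling in each comparison, to 0.01, -0.014, 0.062, -0.006 and -0.016 in the order of the first sentence. Some uncalled values changed sign: between hairpins without OHT, CDK12 was 0.015 with upper-quartile scaling, MTHFD2 was -0.055 when thinned and -0.050 to 0.071 without 1 library, and PSPH was -0.18 to 0.020. With 1 library left out, MYC upon OHT in shNT ran from -0.17 to 0.035, and between hairpins with OHT MYC ran from -0.043 to 0.16 and DDIT3 from -0.14 to 0.14, each changing sign without shNT_OHT replicate 2. The cause was not tested. Replicate numbers were not taken to pair the libraries: deviations of same-numbered libraries correlated at a median of 0.028 over 18 pairs (-0.0919 to 0.304, 2 over 0.1), and those of differently numbered ones at -0.019 over 36 pairs (up to 0.0996). With the replicate block, 17, 22, 26, 27 and 24 members were called in the order of the first sentence, and 1734, 6236, 7437, 4846 and 5385 of all genes.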
